A study of Mus musculus with 12 samples.

Results

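The genes that carry newly made proteins into the endoplasmic reticulum (ER), trim and glycosylate them there, and ship them on to the Golgi were followed across 4 groups of 3T3 mouse fibroblasts. The set has 51 genes, taken by symbol from the table of 32544 gene rows. The list was drawn up by role, but with earlier results of these data known, so counts within it are descriptions. Its roles are the signal recognition particle (SRP) and its receptor, the Sec61 channel, the translocon-associated protein (TRAP) complex, signal peptidase, the oligosaccharyltransferase, the COPII coat, cargo and KDEL receptors, and the COPI coat. All 51 symbols were found, and all 51 passed the filter on low counts, so that every gene of the set is among the 14279 genes tested.

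3T3 is an established mouse fibroblast line. One group was left untreated, and the other groups received extracellular vesicles, membrane-bound particles that cells shed, for 24 h. Their source was the human breast cancer line MDA-MB-468 in 3 forms: a control line (shCon), a line with CRIPTO knocked down (shCr) and a line made to overexpress CRIPTO (CrOE), a small membrane-anchored signalling protein of early embryos and tumours. Each group had 3 libraries of poly(A)-selected RNA. The fibroblasts themselves were of 1 line throughout, none of the groups received vesicles from a cell other than MDA-MB-468, and the labels name neither the number of donor clones nor the dose. CRIPTO was altered in the donor cells, whose RNA was not analysed here, so the mouse table does not check those labels. The labels do not say that libraries of a group came from separate cultures, so p-values measure only the spread between these libraries. The columns of the CrOE group were headed with the protein's name alone and were assigned to it by elimination.

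A protein destined for secretion carries a signal peptide, which SRP binds as it leaves the ribosome. SRP docks the ribosome at its receptor, the chain threads through the Sec61 channel, signal peptidase removes the signal, and the oligosaccharyltransferase attaches preassembled sugars to asparagines. COPII vesicles then carry folded cargo from the ER to the Golgi, while COPI vesicles and the KDEL receptors bring escaped ER proteins back. Fibroblasts use this route for collagens and other matrix proteins, and the unfolded protein response is known to raise many of its genes.

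Libraries held 25960054 to 37774020 estimated counts, and the lowest value of any gene of the set in any library was 280 counts, for Sec61g. Levels are CPM, a gene's counts at a fixed library total, scaled between libraries by TMM. Calls are adjusted p-values under 0.05 in edgeR's quasi-likelihood test over all 14279 genes, with no minimum fold. Changes are log2 fold changes from untreated cells unless another comparison is named, and where no error is given their SE lay between 0.041 and 0.18 for genes of the set. One library stood apart. In shCr replicate 1 the median log2 difference of the 51 genes from the untreated mean was -0.069, against -0.27 and -0.29 in replicates 2 and 3, and mitochondrial transcripts took 0.622% of its counts, against 1.44% and 1.70%. A low mitochondrial share was also seen in untreated replicate 1, with 0.495%, and in CrOE replicate 2, with 0.693%. The part of RNA quality in the results was not tested. All 12 fibroblast markers examined were tested and all 12 were called lower after CrOE vesicles, where 37.0% of all genes were called lower. After shCr vesicles 7 of them were called lower and 2 higher, where 18.8% of all genes were lower and 18.4% higher. After shCon vesicles 3 were called lower and 3 higher, where 20.2% were lower and 18.0% higher. The summed level of the 12 markers was 18282 to 19223 CPM in untreated libraries and 20383 to 20587 after shCon vesicles. It was 13960 to 16136 CPM after shCr vesicles and 5120 to 5316 after CrOE vesicles. The summed level of 6 macrophage and leukocyte markers was 48.9 to 59.5 CPM in untreated libraries, 82.1 to 92.8 after shCon vesicles, 129.5 to 193.1 after shCr vesicles, highest in shCr replicate 1, and 4.71 to 6.34 after CrOE vesicles. Summed epithelial markers were at 1.14 to 1.69 CPM in untreated and 2.44 to 3.39 CPM in CrOE libraries, and Epcam was at 0 throughout. After CrOE vesicles 2 of the 3 epithelial markers tested were called higher, where 36.7% of all genes were. In untreated libraries summed endothelial markers were at 0.589 to 0.769 CPM. They were at 1.18 to 1.26 after shCon, 0.961 to 1.59 after shCr and 2.25 to 2.56 CPM after CrOE vesicles. Of the 3 tested, 3 were called higher after CrOE vesicles, 1 after shCon and 1 after shCr vesicles. The shares of all genes called higher were 36.7%, 18.0% and 18.4%. Adipocyte markers were at 0.337 CPM or less in every library. The part of these markers in the results was not tested. In bulk RNA, fewer cells of a type and less RNA per cell cannot be told apart.

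Most of the secretory genes rose after CrOE vesicles, and many fell slightly after vesicles of the other lines. Together the 51 genes took 0.841% to 0.871% of the counts in untreated libraries, 0.757% to 0.762% after shCon vesicles, 0.715% to 0.780% after shCr vesicles and 1.45% to 1.49% after CrOE vesicles. The ranges of the CrOE and untreated libraries did not overlap, and those of the shCon and shCr groups lay below the untreated range. Against untreated cells, 39 of the 51 were called higher and 2 lower after CrOE vesicles, where 36.7% of all genes tested were called higher and 37.0% lower. Of the 39, 11 were at least 2-fold higher, from Stt3a (2.18-fold) to Serp1 (5.49-fold), with Ssr1 just short of it; 11.0% of all genes were called higher and at least 2-fold. The median log2 change of the set was 0.66, beside 0.0078 over all genes. After shCon vesicles 24 were called lower and 0 higher, where 20.2% of all genes were called lower and 18.0% higher, and the median was -0.20 beside 0.0069. After shCr vesicles 24 were called lower and 0 higher, where 18.8% of all genes were called lower and 18.4% higher, and the median was -0.21 beside 0.020. At an unadjusted p under 0.05 in edgeR the numbers higher were 0 after shCon and 0 after shCr vesicles. The share of all genes at that threshold is not given here. DESeq2 called 0 higher in both, where it called 10.9% and 11.0% of all genes higher. These comparisons share the untreated libraries, so their counts are not independent of each other. An F-test among the 4 groups called 47 of the 51, where 81.3% of all genes were called.

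**Figure D1:**
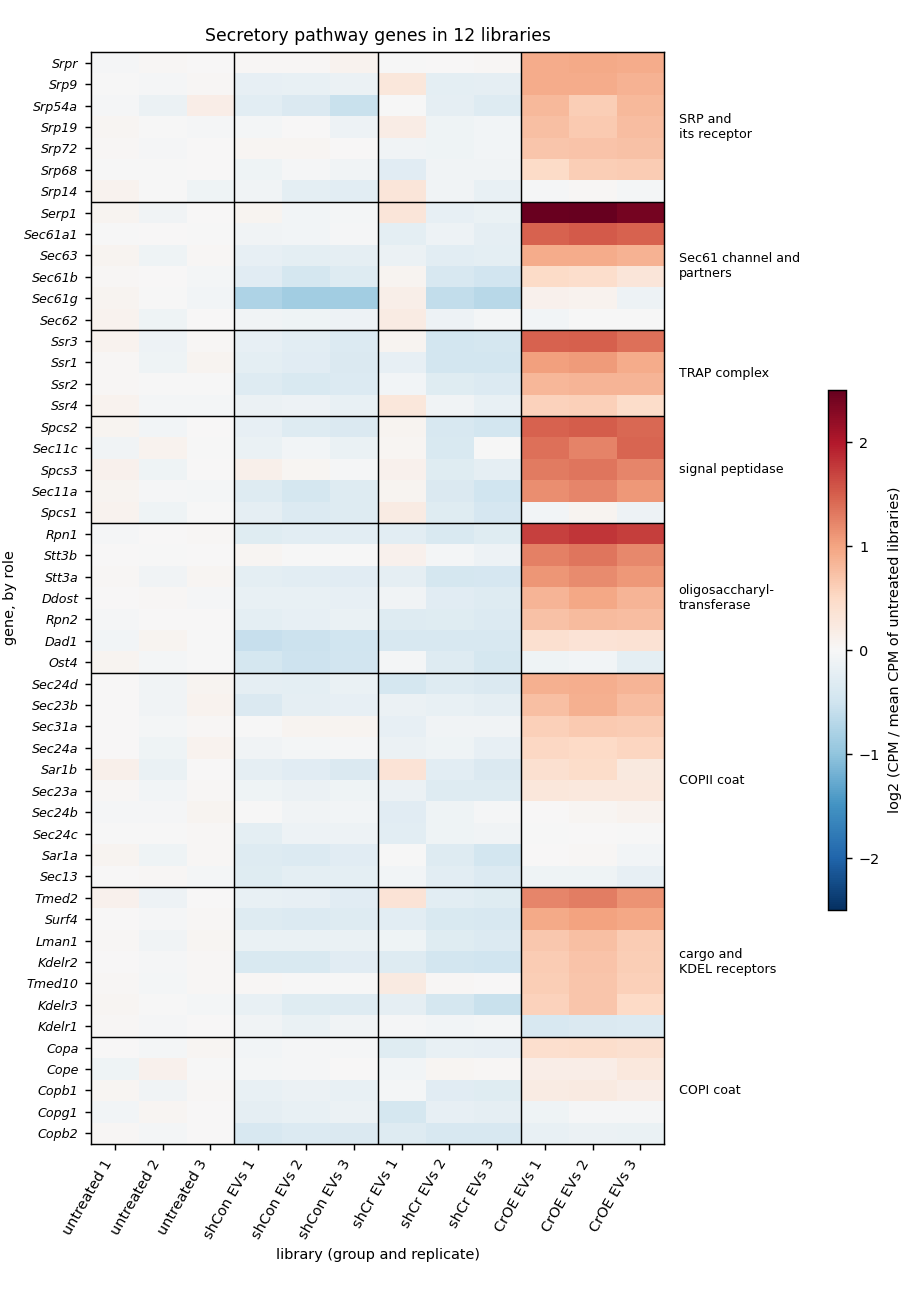
Heat map of the 51 genes (rows, grouped by role) in the 12 libraries (columns, grouped by treatment), with colour giving the log2 difference of each library's CPM from the mean of the untreated libraries. The CrOE libraries are high in most rows. Kdelr1, Copb2, Sec13 and Ost4 are among the genes below the untreated mean in them, and Copb2 is lower still in the shCon and shCr libraries.

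Comparisons between the vesicle groups do not use the untreated means. Against shCon vesicles, 44 of the 51 were called higher after CrOE vesicles and 1 lower, where 36.5% of all genes were called higher and 36.1% lower. Against shCr vesicles, 44 were called higher and 1 lower, where 36.9% were called higher and 37.0% lower. The 1 gene called lower in each was Kdelr1. Between knockdown and control vesicles few genes were called over the whole table, with 5.22% higher and 3.51% lower after shCr than after shCon vesicles, and of the 51 genes 0 were called higher and 1 lower, Copa. DESeq2 called 0 higher and 6 lower, where it called 3.68% of all genes higher and 2.95% lower. At an unadjusted p under 0.05 in edgeR 3 of the 51 were higher and 7 lower. No share of all genes at that threshold is given here, so these numbers have no background beside them. The median log2 difference of the 51 genes between shCr and shCon vesicles was 0.011. The CrOE medians were 0.86 against shCon and 0.80 against shCr.

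Several of these counts shifted when a single library was left out. Without shCr replicate 1, 36 genes were called lower after shCr vesicles, where 23.7% of all genes were called lower, and 35 after shCon vesicles, where 24.0% were. The calls with all libraries mostly held: 23 of the 24 after shCr vesicles (all but Sec24c), 24 of 24 after shCon vesicles, 41 of 41 after CrOE vesicles and 44 of 45 between CrOE and shCr (all but Sec24c) were still called. Without shCon replicate 2, 16 were called lower after shCon vesicles, where 15.8% of all genes were, and without untreated replicate 1, 18 were called lower after shCr vesicles, where 16.2% of all genes were. With any single library left out, 37 to 39 were called higher after CrOE vesicles, where 34.0% to 38.3% of all genes were. The number called lower was 4 without shCr replicate 1, where 38.6% of all genes were. Between shCr and shCon vesicles 4 were called lower without shCr replicate 1, where 4.32% of all genes were. The number was 2 without untreated replicate 2, where 3.99% were, and 0 without any 1 of the shCon libraries, where 1.76% to 2.11% were. Without shCr replicate 3 the number called higher was 2, where 5.30% of all genes were. Log2 changes of the 51 genes ran from -0.37 to 2.46 in the CrOE group, against -0.84 to 0.052 in the shCon group and -0.42 to 0.095 in the shCr group.

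**Figure D2:**
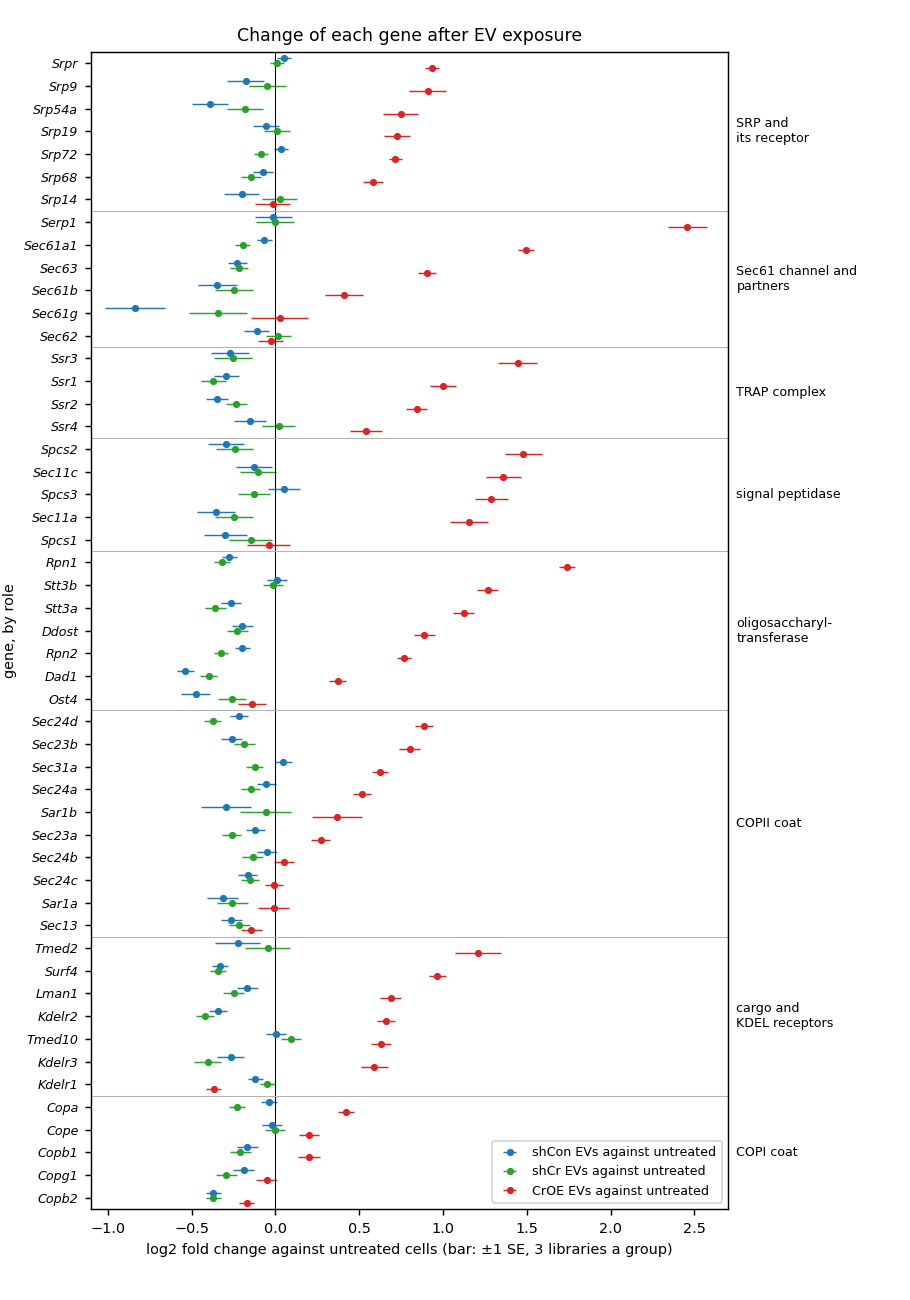
Log2 fold change against untreated cells for each of the 51 genes after shCon, shCr and CrOE vesicles, grouped by role. Points are estimates and bars are standard errors. After CrOE vesicles the values run from -0.37 for Kdelr1 to 2.46 for Serp1.

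SRP is a ribonucleoprotein whose Srp9 and Srp14 subunits slow elongation, whose Srp54 subunit binds the signal peptide, and whose Srp19, Srp68 and Srp72 subunits hold the particle together. Srpr is the alpha subunit of its receptor. After CrOE vesicles 6 of these 7 genes rose, with a median log2 change of 0.72, where 36.7% of all genes were called higher. Srp14 did not pass the test. Srpr had 143, 149.5 and 146 CPM in the untreated libraries, 149.6, 150.0 and 155 after shCon vesicles, 146, 147 and 148 after shCr vesicles, and 278, 283 and 278 after CrOE vesicles. All CrOE libraries lay above all others, and the shCon libraries were slightly above the untreated ones, a difference that was not called. The log2 change of Srpr in CrOE was 0.94 ± 0.041 (SE, 3 against 3 libraries; adjusted p = 2.85e-10, edgeR), or 1.91-fold. Srp9 had a log2 change of 0.91, Srp19 and Srp72 of 0.72 each, and Srp68 of 0.58. Srp14, the direct partner of Srp9, had 68.5 ± 4.68 CPM untreated and 67.7 ± 1.86 in the CrOE group (mean ± SD, n = 3). Of the SRP genes, only Srp54a was called after shCon vesicles, where 20.2% of all genes were called lower and 18.0% higher. Srp54a levels were 20.9, 19.3 and 23.9 CPM in untreated cells, 17.7, 16.6 and 14.6 with shCon vesicles, 21.2, 18.2 and 17.2 with shCr vesicles, and 37.6, 32.9 and 37.3 with CrOE vesicles. The shCon libraries lay below the untreated ones and the CrOE libraries above all others, and log2 changes were -0.39 ± 0.11 (adjusted p = 0.0122, lost without untreated replicate 3 or shCon replicate 3) and 0.75 ± 0.10. Of all runs of 31 bases in Srp54a transcripts, 72.5% also occur in its near-identical copy Srp54b (GENCODE M21), so the counts of the pair are uncertain, and 26.9% of those of Srpr occur elsewhere, mostly in Gm6733. Exons of Serp1, Surf4, Kdelr3, Copa, Ost4 and Spcs1, among others, overlap a gene on the opposite strand (Eif2a, Surf2, Ddx17, Ncstn, Agbl5 and Glt8d1), and whether counting used strand is not given in the sources used here.

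The Sec61 channel is built of Sec61a1, Sec61b and Sec61g, Sec62 and Sec63 assist chains that enter after synthesis, and Serp1 (RAMP4) is a small stress-associated protein that binds the channel. Serp1 had the largest rise of the 51 genes after CrOE vesicles. In replicates 1 to 3, Serp1 was at 133, 119.6 and 129 CPM without vesicles, 134, 122 and 122 after shCon, 157, 110.2 and 113 after shCr, and 703, 722 and 668 after CrOE vesicles. The CrOE libraries lay far above the rest, which overlapped, and the log2 change was 2.46 ± 0.12 (adjusted p = 6.17e-10), a 5.49-fold rise. Its relative Serp2 was not called, at 3.33 ± 0.423 CPM untreated and 3.14 ± 0.772 in the CrOE group. Untreated libraries held 290.0, 293 and 291 CPM of Sec61a1, shCon libraries 274, 277 and 284, shCr libraries 246, 267 and 251, and CrOE libraries 809.6, 839.5 and 815. Sec61a1 was high in all CrOE libraries and lowest in the shCr group, whose fall was also called (log2 -0.19, adjusted p = 0.00462). Its rise after CrOE vesicles was 1.50 ± 0.046 on the log2 scale, against 0.26 for the second alpha-subunit gene, Sec61a2.

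The other channel subunits had lower values. Sec61b rose by log2 0.41 (adjusted p = 0.00565), and Sec61g was not called after CrOE vesicles. Sec61g had 19.4, 18.2 and 17.5 CPM in the untreated libraries, 10.8, 9.99 and 10.1 after shCon vesicles, 20.3, 11.9 and 11.3 after shCr vesicles, and 19.8, 19.4 and 16.9 after CrOE vesicles. Sec61g was low in every shCon library and in shCr replicates 2 and 3. Its level in shCr replicate 1 lay above the untreated range, and the CrOE libraries overlapped the untreated ones. Its log2 change after shCon vesicles, -0.84 ± 0.18 (adjusted p = 0.00268), was the largest fall of the set in that comparison. Sec61b also fell there, with a log2 change of -0.35, a call lost in 6 of 18 alternatives. Other annotated genes hold 23.5% of the 31-base runs of Sec61b and 15.7% of those of Sec61g, so that their counts are uncertain. Sec63 rose after CrOE vesicles (log2 0.90) and fell after shCon vesicles (log2 -0.23). Sec62 was called in none of the comparisons, at 166 ± 10.5 CPM untreated and 163 ± 3.66 in the CrOE group.

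The 4 TRAP subunits, which sit beside the channel and help some signal peptides to open it, all rose after CrOE vesicles. Their median log2 change was 0.92, and 36.7% of all genes were called higher there. Ssr3 levels were 340.0, 296 and 329 CPM in untreated cells, 278, 266 and 254 with shCon vesicles, 336, 235 and 238 with shCr vesicles, and 892, 905 and 830.3 with CrOE vesicles. Its log2 change was 1.45 ± 0.12 (adjusted p = 1.26e-07), and the CrOE libraries lay above all others. In shCr replicate 1 Ssr3 was at the untreated level, and in replicates 2 and 3 it was lower. Ssr1 rose by log2 1.00, Ssr2 by 0.84 and Ssr4 by 0.54. In replicates 1 to 3, Ssr2 was at 144, 140.4 and 142 CPM without vesicles, 113, 109 and 112 after shCon, 135, 114 and 113 after shCr, and 252, 257 and 255 after CrOE vesicles. The CrOE libraries of Ssr2 were the highest and every shCon and shCr library lay below the untreated ones, with log2 changes of -0.35 ± 0.063 (adjusted p = 0.000868) and -0.23 ± 0.063 (adjusted p = 0.0109).

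Signal peptidase had the highest median of the 8 roles after CrOE vesicles, 1.29 on the log2 scale. Of its 5 genes 4 were called higher, where 36.7% of all genes were. Sec11a and Sec11c are its catalytic subunits, and the Spcs genes encode its accessory subunits. Untreated libraries held 78.9, 72 and 75.7 CPM of Spcs2, shCon libraries 65.5, 60.2 and 58.9, shCr libraries 79.1, 57.3 and 55.2, and CrOE libraries 210.4, 216 and 205. Spcs2 was 2.79-fold higher after CrOE vesicles (log2 1.48 ± 0.11, adjusted p = 5.54e-08), with no overlap with any other group. Spcs3 rose by log2 1.29 and Sec11c by 1.36. Sec11a had 53.6, 49.5 and 49.3 CPM in the untreated libraries, 40.9, 37.6 and 40.7 after shCon vesicles, 53.1, 39.6 and 36 after shCr vesicles, and 113, 119 and 107 after CrOE vesicles. CrOE libraries were again the highest for Sec11a and shCon libraries lay below the untreated ones, so that it was called in both directions: 1.15 ± 0.11 after CrOE vesicles and -0.35 ± 0.11 after shCon vesicles (adjusted p = 0.0263, lost in 4 alternatives). Spcs1, which is not needed for catalysis, was not called in any comparison and had 89.1 ± 6.11 CPM untreated and 86.6 ± 6.13 in the CrOE group.

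The oligosaccharyltransferase showed both the rise and the fall in most of its subunits. Stt3a and Stt3b are alternative catalytic subunits, Rpn1, Rpn2, Ddost and Dad1 are shared subunits, and Ost4 is a very small one. After CrOE vesicles 6 of 7 rose, with a median log2 change of 0.89, where 36.7% of all genes were called higher. After shCon vesicles 6 of 7 fell, with a median of -0.26, and after shCr vesicles 6 of 7 fell, with a median of -0.32. Of all genes, 20.2% and 18.8% were called lower in those comparisons. Rpn1 levels were 217, 224 and 226 CPM in untreated cells, 179.5, 186 and 187 with shCon vesicles, 184, 171 and 179 with shCr vesicles, and 730.4, 765 and 734 with CrOE vesicles. Rpn1 libraries of the shCon and shCr groups overlapped each other below the untreated range, and CrOE libraries stood above it. The log2 changes of Rpn1 were -0.27 ± 0.046 (adjusted p = 0.000493), -0.32 ± 0.046 (adjusted p = 0.00014) and 1.74 ± 0.047 (adjusted p = 3.47e-12). Between CrOE and shCon vesicles it differed by 2.01 ± 0.048 (adjusted p = 1.68e-12).

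Of the catalytic subunits, Stt3a was called in both directions against untreated cells and Stt3b only after CrOE vesicles. In replicates 1 to 3, Stt3a was at 330.3, 307 and 338 CPM without vesicles, 274, 269.9 and 268 after shCon, 277, 240.2 and 244 after shCr, and 701, 737 and 686 after CrOE vesicles. Stt3a fell in the shCon and shCr groups, without overlap with untreated cells, and rose in the CrOE group. Untreated libraries held 203, 201 and 203 CPM of Stt3b, shCon libraries 209, 202 and 200.4, shCr libraries 219, 195 and 186, and CrOE libraries 487, 510.4 and 462. Stt3b libraries of the untreated, shCon and shCr groups overlapped, and the CrOE libraries lay above them. After shCon vesicles the log2 change was -0.26 ± 0.061 for Stt3a (adjusted p = 0.00456) and 0.0099 ± 0.061 for Stt3b (adjusted p = 0.918). Differences between genes, here and for the gene copies of the coats and receptors, were not themselves tested. After CrOE vesicles both rose, by 1.12 and 1.27. Dad1 had 69.1, 76.5 and 71.9 CPM in the untreated libraries, 48.5, 50.1 and 51.3 after shCon vesicles, 55, 55.2 and 54.9 after shCr vesicles, and 96.3, 92.4 and 92.7 after CrOE vesicles. Dad1 had the lowest adjusted p of the falls after shCon vesicles (log2 -0.54 ± 0.05, adjusted p = 3.72e-06), and its 4 groups did not overlap each other. Rpn2 rose by log2 0.77 and Ddost by 0.89. The fall of Ddost after shCon vesicles (log2 -0.20) was a call lost in 5 of 18 alternatives. Ost4 fell after shCon vesicles (log2 -0.48, adjusted p = 0.00078), and was not called after CrOE vesicles (-0.14, adjusted p = 0.151).

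**Figure D3:**
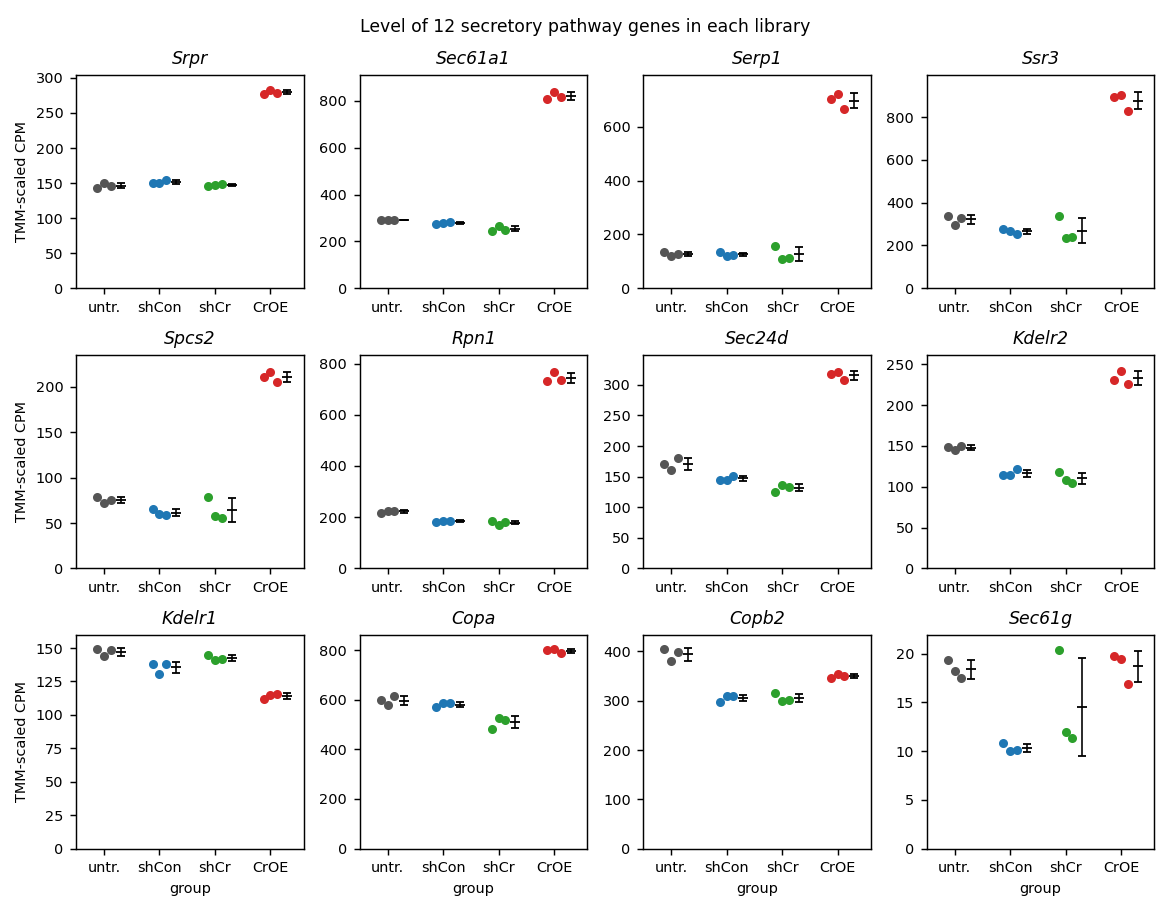
CPM in each library for 12 genes, in panels with their own linear axes, for the 4 groups of 3 libraries. Points are libraries and bars are the mean ± SD. Serp1 and Rpn1 lie highest in the CrOE group, Kdelr1 lies lowest there, and Sec61g is low in the shCon group and in shCr replicates 2 and 3.

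Rises were also called for most COPII genes. The GTPase Sar1 starts the coat, Sec23 and Sec24 form the inner layer, in which Sec24 picks the cargo, and Sec13 and Sec31 form the outer cage. After CrOE vesicles 6 of these 10 genes rose, with a median log2 change of 0.32, where 36.7% of all genes were called higher. After shCon vesicles 5 of 10 fell, where 20.2% of all genes were called lower. Sec24d levels were 171, 161 and 179.8 CPM in untreated cells, 145, 144 and 152 with shCon vesicles, 125, 136 and 134 with shCr vesicles, and 318, 322 and 307 with CrOE vesicles. Sec24d was low in the shCon and shCr groups and high in the CrOE group, with no overlap with untreated cells in any, and its log2 changes were -0.22 ± 0.052 (adjusted p = 0.00603), -0.37 ± 0.052 (adjusted p = 0.000108) and 0.89 ± 0.052 (adjusted p = 5.53e-09). Sec24a rose by log2 0.52, while Sec24b (0.051, adjusted p = 0.467) and Sec24c (-0.0082, adjusted p = 0.901) were not called. Sec23b rose by log2 0.80 and Sec23a by 0.27. Sec31a rose by log2 0.62, and its copy Sec31b, with 1.61 ± 0.702 CPM untreated, by 1.34 ± 0.40.

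The Sar1 genes and Sec13 stayed near the untreated level after CrOE vesicles or close to the threshold. In replicates 1 to 3, Sar1a was at 206, 181 and 199 CPM without vesicles, 157, 155 and 159.5 after shCon, 193, 156 and 142 after shCr, and 196, 199 and 187 after CrOE vesicles. Sar1a was lower in every shCon library than in untreated cells (log2 -0.31 ± 0.092, adjusted p = 0.0168, lost without untreated replicate 1, untreated replicate 3 or shCon replicate 2), and CrOE libraries overlapped the untreated ones. Sar1b rose by log2 0.37 after CrOE vesicles (adjusted p = 0.0402), a call lost in 8 of 18 alternatives and the nearest to the threshold of those inside it. Sec13, also a part of the nuclear pore, was the nearest outside, at -0.14 (adjusted p = 0.0636), and fell after shCon vesicles (log2 -0.26).

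Among the receptors that sort cargo, 6 of 7 rose after CrOE vesicles and Kdelr1 fell. The shares of all genes there were 36.7% called higher and 37.0% called lower. KDEL receptors return ER chaperones from the Golgi, Tmed2 and Tmed10 are p24 proteins, Lman1 (ERGIC-53) is a lectin that exports glycoproteins, and Surf4 exports soluble cargo. Untreated libraries held 149, 144 and 149 CPM of Kdelr1, shCon libraries 138, 131 and 138, shCr libraries 145, 141 and 142, and CrOE libraries 112, 115 and 116. All CrOE libraries of Kdelr1 lay below all others, and its log2 change was -0.37 ± 0.044 (adjusted p = 5.5e-06), a level 1.29-fold lower. Its small fall after shCon vesicles was just inside the threshold (adjusted p = 0.046) and lost in 12 alternatives. Kdelr2 had 148, 145 and 150.5 CPM in the untreated libraries, 114, 114 and 122 after shCon vesicles, 118, 108 and 105 after shCr vesicles, and 231, 242 and 227 after CrOE vesicles. Kdelr2 was lowest after shCon and shCr vesicles and highest after CrOE vesicles, with no overlap between untreated cells and any vesicle group. Its log2 changes were -0.34 ± 0.055, -0.42 ± 0.055 and 0.66 ± 0.055 (adjusted p = 0.000366, 6.28e-05 and 1.77e-07). Kdelr3 was called in the same directions, with log2 changes of -0.27, -0.40 and 0.59. Its call after shCon vesicles was lost without untreated replicate 1, shCon replicate 2 or shCon replicate 3.

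Tmed2 levels were 273, 231 and 254 CPM in untreated cells, 221, 218 and 209 with shCon vesicles, 319, 209.8 and 206 with shCr vesicles, and 589.8, 615 and 551 with CrOE vesicles. Tmed2 was higher in the CrOE libraries than in all others (log2 1.21 ± 0.14, adjusted p = 3.41e-06), and shCr replicate 1 stood above the untreated range while replicates 2 and 3 lay below it. Other annotated genes hold 24.7% of the 31-base runs of Tmed2, so that its counts are uncertain. Tmed10 rose by log2 0.63 and Lman1 by 0.69. In replicates 1 to 3, Surf4 was at 432, 417 and 436 CPM without vesicles, 342, 337 and 343 after shCon, 358, 329.9 and 326 after shCr, and 821, 857 and 833 after CrOE vesicles. Surf4 fell in the shCon and shCr groups (log2 -0.33 ± 0.048 and -0.34 ± 0.048) and rose after CrOE vesicles (0.97 ± 0.049, adjusted p = 1.15e-09), with no overlap with untreated cells.

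The COPI coat, which covers vesicles on the way back to the ER, had the lowest median of the 8 roles after CrOE vesicles, 0.20 on the log2 scale, with 3 of 5 genes higher and 1 lower. Of all genes tested there, 36.7% were called higher and 37.0% lower. Untreated libraries held 598, 578 and 614 CPM of Copa, shCon libraries 569, 587 and 586, shCr libraries 482, 528 and 519, and CrOE libraries 799, 804 and 790.0. Copa was highest in the CrOE libraries and lowest in the shCr libraries, whose range lay below those of the untreated and shCon groups. Its log2 changes were 0.42 ± 0.048 after CrOE vesicles (adjusted p = 4.11e-06) and -0.19 ± 0.048 between shCr and shCon vesicles (adjusted p = 0.0307, lost in 5 alternatives, among them each that left out a shCon library). Cope rose by log2 0.20 and Copb1 by 0.20, a call of Copb1 that was lost without untreated replicate 2 (adjusted p = 0.0512 in edgeR). Copb2 had 404, 379.9 and 399.8 CPM in the untreated libraries, 298, 309.8 and 309 after shCon vesicles, 315, 300.2 and 301 after shCr vesicles, and 346, 355 and 350.1 after CrOE vesicles. Copb2 was lower in all vesicle libraries than in untreated ones, and higher in the CrOE than in the shCon libraries (log2 0.20 ± 0.045, adjusted p = 0.00158). Its changes from untreated cells were -0.37 ± 0.045 after shCon vesicles, -0.37 ± 0.045 after shCr vesicles and -0.17 ± 0.045 after CrOE vesicles (adjusted p = 3.89e-05, 3.5e-05 and 0.00383). Copg1 was not called after CrOE vesicles (-0.053), where its copy Copg2 fell (log2 -0.71 ± 0.05, adjusted p = 3.19e-08).

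The RefSeq promoter windows (GRCm38.p6, 250 bases before to 50 after a gene's start) were searched on both strands for elements named after the ER stress response, in the 42 of 51 genes that had a window. The element ERSE, CCAAT and CCACG with 9 bases between them, was in 0 of the 42 and in 0.137% of 27025 genes, and ERSE-II, ATTGG and CCACG with 1 base between, in 0 and in 0.0444%. The core of the unfolded protein response element (UPRE), TGACGTGG, was in 5 of the 42, or 11.9%, and in 0.714% of all genes. These were Copb1, Copb2, Kdelr3, Sec23a and Sec24d. The cAMP response element TGACGTCA, whose first letters it shares, was in 1 of the 42, Cope, and in 2.03% of all genes. A match is a description of these letters and not a site of binding, and the absence of one says only that the letters are not in this window. To show the letters this count rests on, the bases upstream of the start are given for the 3 genes in which the core lay wholly before it, 5′ to 3′ on the gene's strand, with the core in capitals (as its reverse complement in Copb1 and Kdelr3). They lie at chr7:114254681-114254748 (minus strand) for Copb1, chr15:79516338-79516407 (plus strand) for Kdelr3 and chr3:123267430-123267495 (plus strand) for Sec24d, directly before the annotated starts.
Copb1: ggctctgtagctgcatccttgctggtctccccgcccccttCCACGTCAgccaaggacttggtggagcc
Kdelr3: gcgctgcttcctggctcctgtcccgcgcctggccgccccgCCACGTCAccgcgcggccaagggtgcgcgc
Sec24d: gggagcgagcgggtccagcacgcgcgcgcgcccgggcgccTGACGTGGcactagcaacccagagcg
Beside these letters, the 5 genes with the core were called in both directions after CrOE vesicles. Kdelr3 and Sec24d rose by log2 0.59 and 0.89, Sec23a and Copb1 by 0.27 and 0.20, and Copb2 fell (-0.17).

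Genes outside the set that serve the same steps were called in both directions after CrOE vesicles, where 36.7% of all genes were called higher and 37.0% lower. Of 20 other translocation and signal peptide genes tested, 12 rose and 5 fell. The SRP receptor's beta subunit Srprb rose by log2 1.69 ± 0.062 and Mmgt1, of the ER membrane complex (EMC) that inserts membrane proteins, by 1.14 ± 0.095. Emc2 levels were 172, 146 and 157 CPM in untreated cells, 139, 134 and 129 with shCon vesicles, 199, 147 and 144 with shCr vesicles, and 41.9, 44.9 and 41.1 with CrOE vesicles. Emc2, another EMC subunit, was 3.72-fold lower after CrOE vesicles (log2 -1.89 ± 0.11, adjusted p = 5.22e-09), without overlap with any other group, and Emc9 had a log2 change of -1.65. Of 39 other oligosaccharyltransferase and sugar-donor genes, 24 rose and 6 fell. Magt1, which works with Stt3b, rose by log2 1.67 and the mannosyltransferase Alg12 by 1.59, while the deglycosylase Ngly1 (-1.30) and the dolichol-phosphate mannose synthase subunit Dpm1 (-0.97) fell.

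Of 34 other COPII, exit site and tether genes tested, 18 rose and 8 fell. The SNARE Bet1 rose by log2 1.58 ± 0.13, and Trappc1, of the TRAPP tethering complex, and Sec16b, an exit site scaffold, fell (-1.76 and -0.97). Of 36 other cargo receptor and COPI genes tested, 17 rose and 10 fell, 47.2% higher and the share nearest to that of all genes among these 4 lists, with Nbas, of a tether for COPI vesicles at the ER, at 1.61, the p24 protein Tmed5 at 1.44, the COPI subunit Copz2 at -1.09 and the p24 protein Tmed1 at -0.99. The median log2 changes of these 4 lists were 0.24, 0.40, 0.23 and 0.15.

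**Figure D4:**
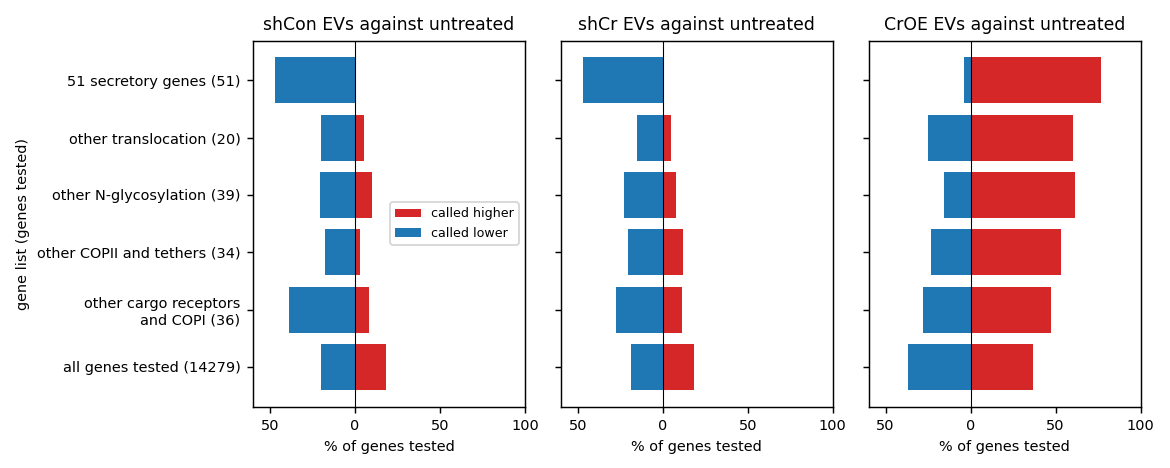
Percent of tested genes called higher (red, to the right of 0) and called lower (blue, to the left) among the 51 secretory genes, in each of the 4 lists of other secretory genes and among all genes tested, after shCon, shCr and CrOE vesicles against untreated cells. After CrOE vesicles 39 of the 51 genes were called higher and 2 lower, and the share called higher lies between 47.2% and 61.5% in the other lists, beside 36.7% of all genes.

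Of 10 genes that regulate or report the demand on the ER, 7 rose and 2 fell after CrOE vesicles, where 36.7% of all genes were called higher and 37.0% lower. Hspa5 had 674, 652 and 647 CPM in the untreated libraries, 611, 602 and 599 after shCon vesicles, 705, 579.7 and 593 after shCr vesicles, and 11701, 12092 and 11400.1 after CrOE vesicles. Hspa5, the main ER chaperone BiP and a usual readout of the unfolded protein response, was 17.8-fold higher in the CrOE group than in untreated cells, with no overlap, and was not called after shCon or shCr vesicles. The sensors Atf6 and Ern1 (IRE1) rose by log2 1.97 and 1.93, and Xbp1, whose transcript IRE1 splices, by 1.72. Splicing was not measured in gene counts. Atf6 and Ern1 also rose after shCon vesicles (0.49 and 0.63) and after shCr vesicles (0.58 and 0.65). Whether the levels of these regulators bear on the 51 genes was not tested. Mbtps2, the site-2 protease that activates Atf6, rose by log2 0.93, Atf6b by 0.38 and the collagen secretion factor Creb3l2 by 0.32, whereas the site-1 protease Mbtps1 fell (-0.46) and Creb3 did not pass the test (-0.16, adjusted p = 0.0586). Untreated libraries held 45.8, 45.4 and 46.6 CPM of Creb3l1, shCon libraries 86.6, 88.1 and 88.8, shCr libraries 63.3, 73.6 and 80.6, and CrOE libraries 24.3, 26.8 and 26.1. Creb3l1 (OASIS), a related membrane-bound factor that acts on collagen genes, was high after shCon and shCr vesicles and low after CrOE vesicles, without overlap between untreated cells and any vesicle group. Its log2 changes were 0.94 ± 0.075, 0.66 ± 0.075 and -0.84 ± 0.077 (adjusted p = 9.96e-07, 1.95e-05 and 4.88e-07).

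**Figure D5:**
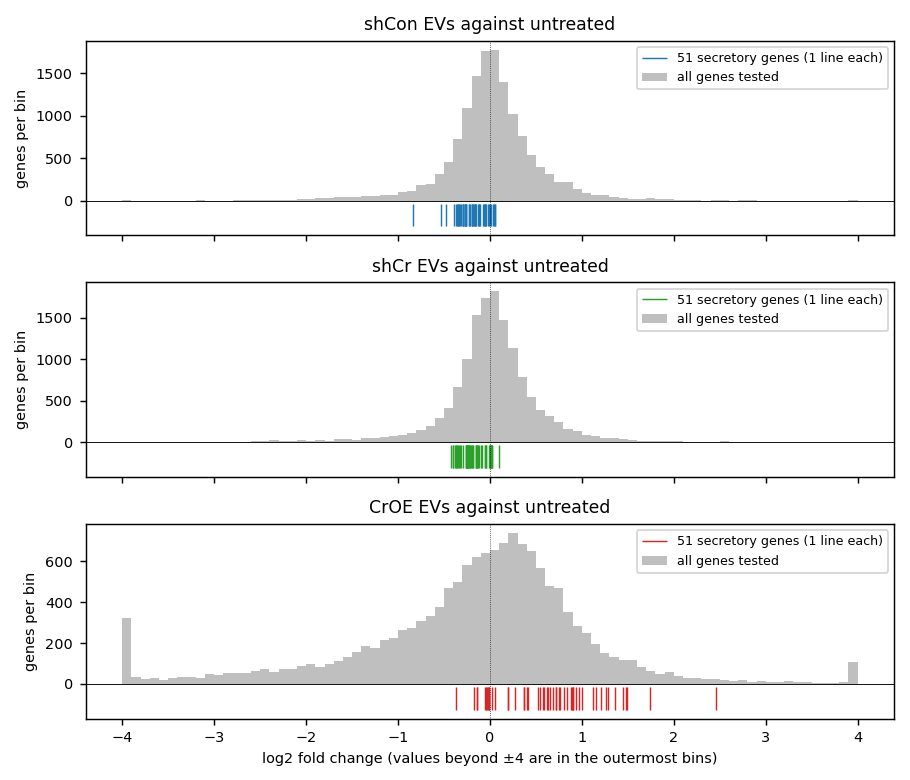
Distribution of log2 fold changes against untreated cells over all 14279 genes tested and over the 51 secretory genes, after shCon, shCr and CrOE vesicles. The secretory genes have medians of -0.20, -0.21 and 0.66.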

How the data were processed

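The 12 libraries were made from poly(A)-selected RNA with a directional kit, per the labels' protocols. Estimated counts by gene symbol were deposited as 1 table, unscaled between libraries, in which 39.8% of the values are not whole numbers. The submitters' processing notes name featureCounts and mm39; the aligner, the annotation and how fractional values arose are not given in the sources used here. Values were rounded to whole numbers, and 14279 of 32544 rows passed filterByExpr. One model of all 12 libraries (TMM scaling, 8 residual degrees of freedom) was fitted in edgeR 4.0.16 (R 4.3.3, limma 3.58.1), quasi-likelihood F-tests were two-sided, and p-values were adjusted by Benjamini-Hochberg over all genes of a comparison. SEs were derived from the F statistic.

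The 51 genes, their roles and the other lists were chosen with earlier results of these data known. Values in every library are given for the gene with the largest rise and fall of each role after CrOE and shCon vesicles, and for some of the 16 genes called in opposite directions there; Sec61a1, Emc2, Stt3b, Hspa5 and Creb3l1 were added to these after their values were seen, as was the count at least 2-fold higher. Of each other list the 2 largest rises and falls are named, beside all 10 regulators and the gene copies. On counts simulated for CrOE against untreated (13988 genes), the fit called 61 of 97 genes changed by 0.5 on the log2 scale and 84 of 100 changed by 1, with 4 false calls. That simulation changed few genes, evenly up and down, with the same dispersion for every gene. In the data 36.7% of all genes were called higher and 37.0% lower, so these rates need not hold there. Pairs of libraries within a group differed by more than sampling noise (chi-square per degree of freedom 2.77 or more). The alternatives tried were DESeq2 1.42.0, scaling by median-of-ratios size factors, a minimum of 10 counts per library, testing with no filter, a block by replicate number, a model of only the pair of groups compared, and each library left out in turn. RefSeq promoter windows are of GRCm38.p6, and shared runs of bases and overlapping exons were taken from GENCODE M21; neither is the build named by the submitters, and no coordinate was converted.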

Additional observations from a re-analysis of the deposited data

How the results depend on the processing

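No call turned its direction in any of the 18 alternatives tried for each comparison. Of the calls among the 51 genes, 39 of 41 held in every alternative for CrOE against untreated, 44 of 45 against shCon and 41 of 45 against shCr, but 15 of 24 for shCon and 15 of 24 for shCr against untreated. In a model of the 2 groups compared alone, 15 genes were called (15 lower) after shCr vesicles, where 14.5% of all genes were called lower. The same model called 34 lower after shCon vesicles, where 24.25% of all genes were, and 4 lower after CrOE vesicles, where 38.4% were. Leaving out 1 library gave 2 to 4 lower after CrOE vesicles. Between shCr and shCon the 1 call, Copa, was the least stable: the calls (all lower) were 2 with median-of-ratios size factors, 6 with DESeq2, 0 without a filter, 2 with at least 10 counts in every library, 2 with the replicate block and 0 in the model of the 2 groups. Of all genes, 1.77% to 4.23% were called lower in these settings, with 2.95% in DESeq2. Leaving out 1 library gave 0 to 4 calls there, with 0 to 4 lower and 0 to 2 higher, where 1.76% to 4.32% of all genes were called lower and 2.60% to 5.35% higher. The causes of these shifts were not tested. The replicate numbers gave no clear pairing: deviations of same-numbered libraries correlated between -0.20 and 0.32, with 5 of 18 pairs over 0.1. For different numbers the range was -0.36 to 0.35, with 7 of 36 pairs over 0.1. Deviations from a group mean sum to 0 within the group, so this comparison cannot tell whether libraries shared a batch. The replicate block changed no other count by more than 1.5 times. No scaling moved the median of all genes by over 0.1 on the log2 scale. These scalings assume that most genes are unchanged and so keep this median near 0. It therefore cannot show whether the assumption holds after CrOE vesicles, where 36.7% of all genes were called higher and 37.0% lower.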
